A study of Mus musculus with 14 samples.

Results

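The 5 genes described here, Pf4, Ppbp, Gp1bb, Gp9 and Itga2b, are classical markers of platelets and of the megakaryocytes that shed them. They were found by their symbols in the probe annotation, which gave 7 of the 45281 probes of the array, with 2 probes each for Ppbp and Itga2b and 1 each for the other 3 genes. All 5 of the 19057 annotated genes were measured on all 14 arrays, and no filter on low values was applied. The arrays held RNA of GFP+CD11b+ cells, sorted from 4 PyMT brain metastases (PyMT BrM), 2 EO771 brain metastases (EO771 BrM), the spleens of 3 and the bone marrow of 1 PyMT BrM-bearing mouse, and 2 spleens and 2 bone marrow samples of naive mice without a tumor. The cancer cells, PyMT or EO771, both of mouse mammary tumor origin, had been implanted into the brain about 2 weeks before tissue was taken. All mice were C57Bl/6J, 14 weeks old, and chimeric: their own marrow had been destroyed by irradiation and replaced by hematopoietic stem cells that carry GFP under the ubiquitin C promoter, so that all groups share the transplant and the sort on GFP and CD11b. No EO771-bearing mouse gave spleen or marrow arrays, so EO771 BrM were set against naive tissue, and tumor line and kind of control mouse cannot be told apart there.

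Platelets are fragments of megakaryocytes without a nucleus that carry RNA from their parent cell. PF4, also called CXCL4, and PPBP, the precursor of CXCL7, are chemokines stored in the alpha granules of platelets, from which they are released on activation. GP1BB and GP9 are subunits of the glycoprotein Ib-IX-V complex, by which platelets hold on to von Willebrand factor at an injured vessel wall, and ITGA2B, or CD41, is the alpha chain of the fibrinogen receptor that links activated platelets to each other. The 3 surface genes are largely restricted to the megakaryocyte line and to some early progenitors, whereas Pf4 transcripts are also made by macrophages of several tissues. Platelets and megakaryocytes bind readily to myeloid cells, so their RNA can be carried through a sort for myeloid markers.

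Pf4 and Ppbp are neighbours on mouse chromosome 5 and are transcribed in the same direction, whereas Gp1bb, Gp9 and Itga2b lie on chromosomes 16, 6 and 11. The 250 bases before the annotated starts of Pf4, Ppbp and Itga2b are shown because the neighbours Pf4 and Ppbp were unlike across tissues and Itga2b stands for the surface genes. They are from RefSeq (build GRCm38.p6), 5′ to 3′ on the gene's strand, at chr5:90772185-90772434 on the plus strand for Pf4, chr5:90768268-90768517 on the plus strand for Ppbp and chr11:102469884-102470133 on the minus strand for Itga2b. Capitals mark matches on either strand to the motifs searched, which were, for the GATA factors, AGATAA with its forms AGATAG, then TGATAA with its form TGATAG, for the ETS factors AGGAAG with its form CGGAAG, both families being regulators of megakaryocyte genes, and TATAAA for the TATA box.
Pf4: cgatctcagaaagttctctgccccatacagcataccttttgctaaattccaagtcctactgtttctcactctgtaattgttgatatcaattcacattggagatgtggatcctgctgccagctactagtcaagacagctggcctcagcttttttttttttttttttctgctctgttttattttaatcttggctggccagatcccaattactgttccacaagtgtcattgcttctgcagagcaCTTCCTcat
Ppbp: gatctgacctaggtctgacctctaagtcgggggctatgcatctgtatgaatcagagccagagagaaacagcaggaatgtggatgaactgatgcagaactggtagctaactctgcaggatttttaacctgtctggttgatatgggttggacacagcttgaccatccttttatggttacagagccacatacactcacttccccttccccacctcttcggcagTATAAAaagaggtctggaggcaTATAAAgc
Itga2b: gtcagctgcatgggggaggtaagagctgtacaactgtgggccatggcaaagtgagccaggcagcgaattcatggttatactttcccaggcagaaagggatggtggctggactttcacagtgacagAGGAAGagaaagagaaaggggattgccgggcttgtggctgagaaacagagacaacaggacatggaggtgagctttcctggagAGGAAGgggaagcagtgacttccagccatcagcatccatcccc
The capitals are 1 ETS match that begins 9 bases before the start of Pf4, 2 TATA box matches at 30 and 8 bases before that of Ppbp, and 2 ETS matches at 125 and 43 bases before that of Itga2b. The motif letters were chosen after these sequences had been seen, and no 2 of the matches overlap. The window of Gp9 held 1 ETS match at 16 bases and that of Gp1bb held 1 GATA match at 22 and 1 ETS match at 90 bases; these windows overlap annotated transcripts and are not shown. Among the 27025 promoters of the same length in the table, 27.1% held a GATA match, 39% an ETS match and 13% a TATA box match, so that each is a common run of letters.

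The log2 levels had been quantile normalized, so that all arrays shared one distribution to within 0.00192 at each rank. The median probe of an array stood at 4.06 and the upper quartile at 5.70, which serves below as the guide to what is bright, since no detection values were used. The library labelled PyMT spleen 2 stood apart from its label. Over all probes it correlated with the 3 bone marrow arrays at r = 0.937 to 0.950 and with the 4 other spleen arrays at 0.899 to 0.907, whereas those 4 correlated with each other at 0.922 to 0.962. The mean log2 level of the B cell markers, which mark splenic tissue, was 5.55 on this array, against 7.98 to 8.36 on the 4 other spleen arrays and 5.44 to 6.23 in bone marrow. The main tests on spleen are therefore also given without that array. The title codes tie some arrays together: 3 PyMT BrM share a code with a PyMT spleen, 1 of them also with the PyMT bone marrow, which points to shared mice, and the 2 naive bone marrow arrays carry 1 code apart from a suffix, so they may come from 1 mouse. They correlated at r = 0.968 over all probes, so the 3 bone marrow arrays may stand for 2 mice and their SDs may be too small. The title of naive spleen 1 holds the same code number, so it may share that mouse. EO771 BrM 2 has 2 numbers in its title, so it may be a pool of mice. The p-values measure the spread between arrays.

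Pf4 was bright in all 6 BrM and in bone marrow and much dimmer in spleen. Its log2 level was 9.88, 8.03, 7.41 and 7.85 on the PyMT BrM arrays and 11.32 and 9.67 on the EO771 BrM arrays, against 3.75, 5.80 and 4.62 in PyMT spleens, 4.89 and 5.35 in naive spleens, 7.21 in PyMT bone marrow and 7.77 and 7.78 in naive bone marrow. All 6 BrM arrays lay above all 5 spleen arrays, as they did for 3.79% of all probes, and 5 of the 6 lay above all 3 bone marrow arrays, with PyMT BrM 3 inside the marrow range. On its own array, Pf4 was brighter than 85.3% to 98.4% of all probes in BrM, than 39.0% to 75.7% in spleen and than 84.3% to 87.3% in bone marrow. Ordered by mean, EO771 BrM (10.49) came before PyMT BrM (8.29), naive bone marrow (7.78), PyMT bone marrow (7.21), naive spleen (5.12) and PyMT spleen (4.72). The 2 kinds of BrM overlapped, as did PyMT BrM and naive bone marrow, and the 2 kinds of spleen, while marrow and spleen did not, with all 5 spleens below all 3 marrow arrays, as for 3.06% of all probes.

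Ppbp, the other granule chemokine, was brightest in bone marrow and was dim in 5 of the 6 BrM. The brighter of its probes gave 5.40, 4.04, 3.07 and 3.48 on the PyMT BrM arrays and 8.58 and 4.22 on the EO771 BrM arrays, against 4.06, 7.83 and 2.92 in PyMT spleens, 4.57 and 4.55 in naive spleens, 9.10 in PyMT bone marrow and 8.21 and 8.14 in naive bone marrow. EO771 BrM 1, the array with the most Pf4, was the only BrM array at a marrow-like Ppbp level, and PyMT spleen 2 was the only such spleen. The dimmer probe placed the same 2 arrays at 8.32 and 7.60, while its level in the other BrM was 3.16 to 5.37. For PyMT spleen 1 the probes disagreed, at 4.06 and 1.22, both no higher than the median probe.

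**Figure D1:**
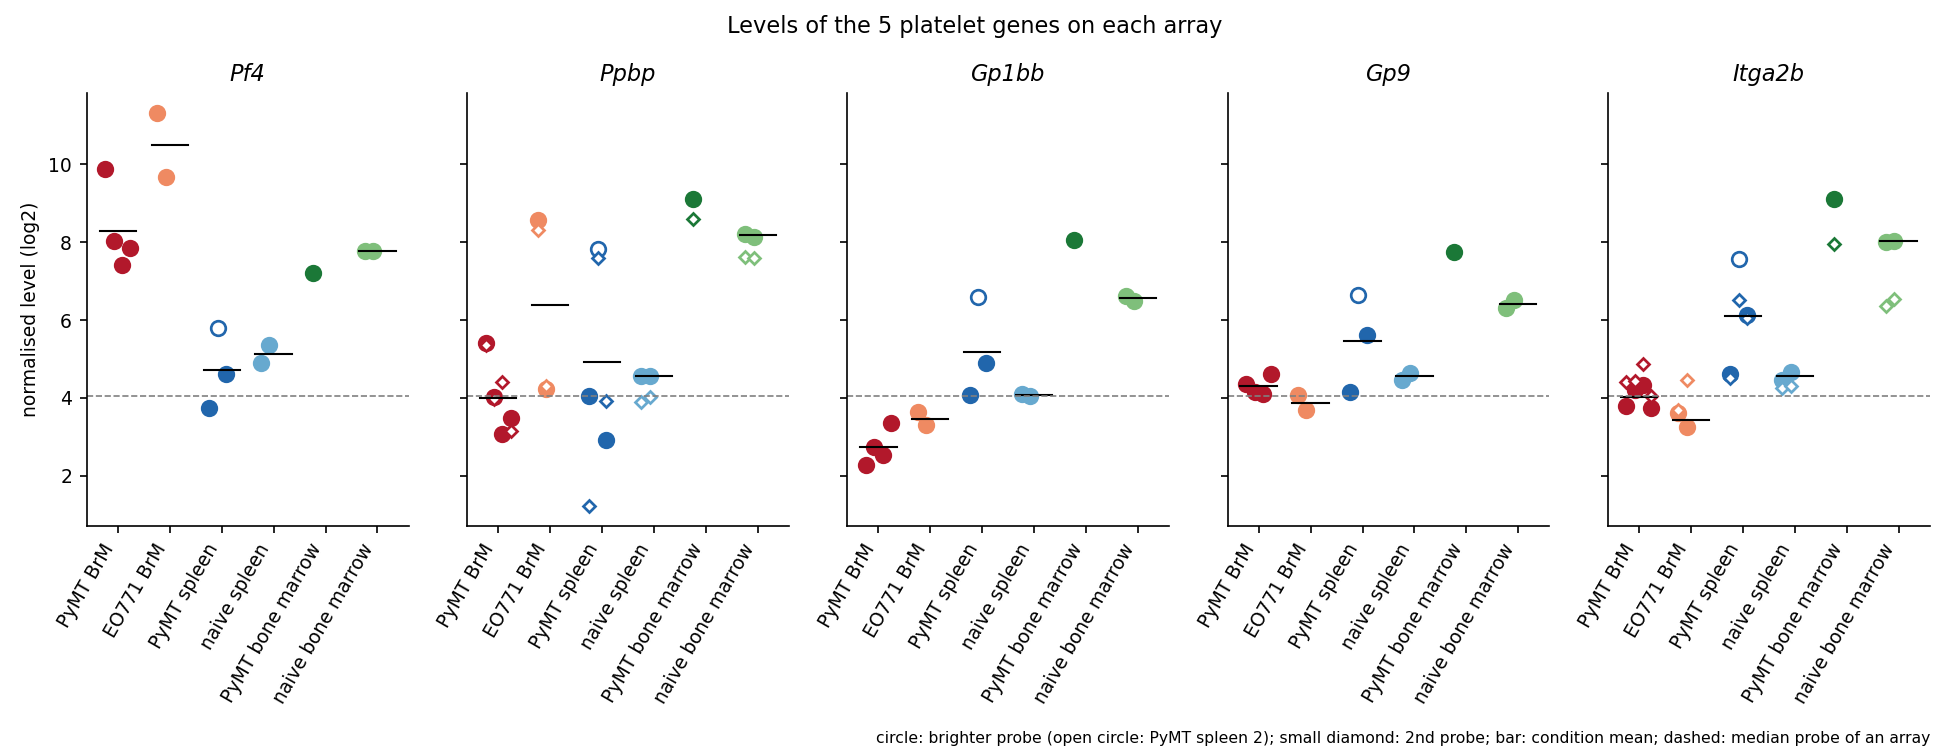
Normalised log2 level of each gene (y axis) on each of the 14 arrays, by condition (x axis), with the brighter probe as circles, the second probe of Ppbp and Itga2b as small diamonds, the condition mean of the brighter probe as a bar, PyMT spleen 2 as an open circle and the median probe of an array (4.06) as a dashed line. Pf4 lies between 7.41 and 11.32 in BrM, whereas Gp1bb, Gp9 and Itga2b lie between 2.27 and 4.61 there and between 6.31 and 9.10 in bone marrow.

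The surface genes had one shared pattern, with BrM near or below the median probe, spleens somewhat higher and bone marrow highest. Gp1bb had log2 levels of 2.27, 2.75, 2.54 and 3.37 in PyMT BrM and 3.63 and 3.30 in EO771 BrM, against 4.07, 6.60 and 4.89 in PyMT spleens, 4.10 and 4.04 in naive spleens, 8.05 in PyMT bone marrow and 6.63 and 6.49 in naive bone marrow. No BrM array reached the lowest of the 8 others, a pattern held by 2.81% of all probes. Gp9 had 4.36, 4.17, 4.11 and 4.61 in PyMT BrM and 4.07 and 3.69 in EO771 BrM, against 4.16, 6.64 and 5.61 in PyMT spleens, 4.47 and 4.65 in naive spleens, 7.76 in PyMT bone marrow and 6.31 and 6.53 in naive bone marrow. BrM and spleen overlapped for Gp9, and BrM and bone marrow did not, as was so for all 3 surface genes and, in that direction, for 9.27% of all probes.

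Itga2b had 3.80, 4.19, 4.33 and 3.75 in PyMT BrM and 3.61 and 3.26 in EO771 BrM, against 4.62, 7.56 and 6.13 in PyMT spleens, 4.47 and 4.67 in naive spleens, 9.10 in PyMT bone marrow and 8.02 and 8.03 in naive bone marrow. All 6 BrM arrays lay below all 8 others for its brighter probe. The second Itga2b probe spanned 3.70 to 4.87 in BrM, 4.25 to 6.52 in spleen and 6.36 to 7.96 in bone marrow, with overlap between BrM and spleen. For each surface gene PyMT bone marrow, a single array, was the highest of all 14, PyMT spleen 2 reached the marrow arrays or came near them, and PyMT spleen 3 stood between. Among the 6 BrM arrays the surface genes differed little, with SDs of 0.53 for Gp1bb, 0.31 for Gp9 and 0.39 for Itga2b, against 1.51 for Pf4 and 2.02 for Ppbp.

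BrM were first compared with spleen, in a fit of all 14 arrays in 3 tissues. Pf4 was 17.7-fold higher, with a mean log2 level of 9.03 ± 1.51 (SD, n = 6) in BrM and 4.88 ± 0.78 (SD, n = 5) in spleen, a difference of 4.14 (SE 0.60, limma adjusted p = 0.000306). It was the 1 called gene of the 5, where 2.57% of all 45281 probes were called higher and 2.60% lower at an adjusted p under 0.01. In bulk RNA, fewer cells of a type and less RNA per cell cannot be told apart. Pf4 levels in spleen ran from 3.75 to 5.80, some of them near the median probe (4.06). The Pf4 fold is therefore limited by the array's background. Without PyMT spleen 2 the Pf4 difference was 4.37 (SE 0.64, adjusted p = 0.000396), and it was called there beside 3.13% of all probes. From a fit of 6 conditions it was 3.57 (SE 0.61, adjusted p = 0.0033) for PyMT BrM against PyMT spleen and 5.37 (SE 0.80, adjusted p = 0.00242) for EO771 BrM against naive spleen, where 2.72% and 1.26% of all probes were called higher. With PyMT spleen 2 left out of that fit these were 4.11 (adjusted p = 0.00219) and 5.37 (adjusted p = 0.00132). In the 3 same-code pairs of PyMT BrM and spleen alone, with the code as a block, the Pf4 difference was 3.04 (SE 0.39, adjusted p = 0.02) and was not called.

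The other genes did not pass against spleen. The difference was -1.77 (SE 0.45) for Gp1bb, -1.67 (SE 0.48) for Itga2b and -0.94 (SE 0.40) for Gp9, with adjusted p = 0.0203, 0.0374 and 0.179. Ppbp differed by 0.01 with a 95% interval of -1.94 to 1.97, which does not exclude a change of several-fold either way, and it differed by -0.74 without EO771 BrM 1 and by 0.77 without PyMT spleen 2. Without PyMT spleen 2, Gp1bb stood at -1.30 (adjusted p = 0.0256), Itga2b at -1.15 (adjusted p = 0.0463) and Gp9 at -0.56 (adjusted p = 0.363). In the fit of 6 conditions, Gp1bb was called between PyMT BrM and PyMT spleens, at -2.46 (SE 0.47, adjusted p = 0.00638) beside 2.02% of probes called lower. It was not called between EO771 BrM and naive spleens, at -0.61 (SE 0.62, adjusted p = 0.75). Without PyMT spleen 2 these were -1.75 (adjusted p = 0.00484) and -0.61 (adjusted p = 0.422). In the 3 same-code PyMT pairs alone, Gp1bb differed by -2.30 (SE 0.52, adjusted p = 0.094) and was not called. Whether the models differ was tested against spleen and marrow together and not against spleen alone.

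Against bone marrow the surface genes were called lower and Pf4 was not. Itga2b was 23.6-fold lower, with means of 3.82 ± 0.39 (SD, n = 6) in BrM and 8.38 ± 0.62 (SD, n = 3) in bone marrow and a log2 difference of -4.56 (SE 0.56, limma adjusted p = 7.42e-05). Gp1bb was 16.9-fold lower, at 2.98 ± 0.53 (SD, n = 6) in BrM and 7.06 ± 0.86 (SD, n = 3) in bone marrow (log2 difference -4.08, SE 0.53, limma adjusted p = 0.000119). Gp9 was 6.49-fold lower, at 4.17 ± 0.31 (SD, n = 6) in BrM and 6.87 ± 0.78 (SD, n = 3) in bone marrow (log2 difference -2.70, SE 0.47, limma adjusted p = 0.00119). These 3 of 5 genes stand beside 3.21% of all probes called lower and 3.24% called higher. The second Itga2b probe was not called against spleen (-0.81, adjusted p = 0.315) or against both tissues together (-1.49, adjusted p = 0.0662). Against bone marrow it also fell, by 2.63 (SE 0.51, adjusted p = 0.00264). With the naive bone marrow arrays averaged to 1 sample, the differences were -4.74 for Itga2b, -4.33 for Gp1bb and -2.92 for Gp9, and all 3 stayed called.

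The BrM levels of these genes lay near the median probe of an array (Gp9 and Itga2b) or below it (Gp1bb). Their folds against bone marrow and their differences from spleen are therefore limited by the array's background. From the fit of 6 conditions, the differences of PyMT BrM from the single PyMT bone marrow array were -5.32 for Gp1bb, -5.08 for Itga2b and -3.45 for Gp9. For EO771 BrM against naive bone marrow they were -3.10, -4.59 and -2.54. Gp1bb and Itga2b were called in both sets, beside 0.585% and 1.99% of all probes, and Gp9 in neither (adjusted p = 0.0112 and 0.0161), though it was called in both without PyMT spleen 2 (adjusted p = 0.00102 and 0.00189), which leaves the differences as they are and lowers their spread. Gp9 also lost its call without the PyMT bone marrow array, at -2.25 (adjusted p = 0.011).

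Ppbp differed from bone marrow by -3.69 (SE 1.07, adjusted p = 0.0347) and was not called, with 1 array deciding. Without EO771 BrM 1 the difference was -4.44 (SE 0.81, adjusted p = 0.00235) and was called, beside 2.88% of probes called lower in that fit. The second Ppbp probe differed by -3.02 (SE 1.12, adjusted p = 0.106) from bone marrow and by 0.79 (adjusted p = 0.717) from spleen with all arrays, and was called in neither. Pf4 differed from bone marrow by 1.44 (SE 0.70, 95% interval -0.04 to 2.92, adjusted p = 0.244), and by 0.98 (adjusted p = 0.348) without EO771 BrM 1. The interval takes in 0.

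Set against the 8 spleen and bone marrow arrays together, Pf4 was higher by 3.13 (SE 0.72, limma adjusted p = 0.00756) and Gp1bb lower (log2 difference -2.63, SE 0.58, limma adjusted p = 0.00565), where 3.80% of probes were called higher and 3.12% lower. Itga2b (-2.75, adjusted p = 0.0118), Gp9 (-1.60, adjusted p = 0.0354) and Ppbp (-1.37, adjusted p = 0.507) were not called. Both calls were close to the threshold and neither held when PyMT spleen 2 was left out, with an adjusted p of 0.0139 for Pf4 and 0.0121 for Gp1bb, in a fit that called 6.38% of all probes. The Pf4 call was kept in 5 and the Gp1bb call in 6 of the 14 fits that left out 1 array each, with differences of 2.67 to 3.45 for Pf4 and of -2.86 to -2.29 for Gp1bb. The Pf4 call was kept without PyMT BrM 3, PyMT BrM 4, or any 1 of the 3 bone marrow arrays, and was lost without any 1 of the other 9 arrays; the Gp1bb call was kept without EO771 BrM 1, PyMT spleen 1, PyMT spleen 3, either naive spleen or PyMT bone marrow, and was lost without any 1 of the other 8. Itga2b was called in 3 of these fits, at -3.03 without PyMT spleen 1, -3.05 without naive spleen 1 and -3.02 without naive spleen 2. The pooled group mixes spleen and marrow.

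The difference between spleen and bone marrow was -3.70 (Ppbp) to -1.76 (Gp9) for the 5 genes, and none was called, where 0.00883% of all probes were called. Unadjusted p-values of limma were 0.000147 for Itga2b, 0.000688 for Gp1bb, 0.00185 for Pf4, 0.00227 for Gp9 and 0.00435 for Ppbp. This comparison turned on 1 array. Without PyMT spleen 2, Itga2b (-3.41, SE 0.41, adjusted p = 0.00021), Gp1bb (-2.78, SE 0.41, adjusted p = 0.00091) and Gp9 (-2.14, SE 0.39, adjusted p = 0.00325) were called lower, beside 1.60% of all probes. Ppbp (-4.46, adjusted p = 0.0125) and Pf4 (-2.93, adjusted p = 0.0289) were not.

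**Figure D2:**
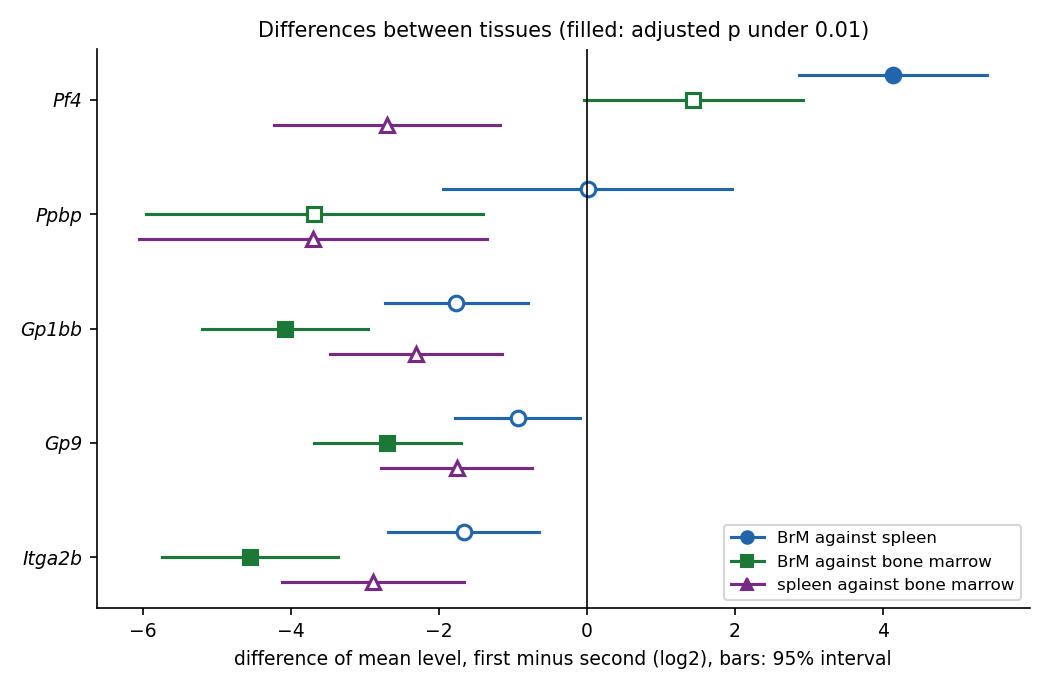
Difference of mean log2 level (x axis) for each gene (y axis), with the 95% interval, for BrM against spleen, BrM against bone marrow and spleen against bone marrow over all 14 arrays. Filled symbols have a limma adjusted p under 0.01, and Pf4 is the only gene with a positive called difference (4.14 against spleen), while Itga2b, Gp1bb and Gp9 are called at -4.56, -4.08 and -2.70 against bone marrow.

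Whether Pf4 changed like the other platelet genes was examined by taking, on each array, the log2 level of Pf4 minus that of each other gene. Levels of different probes cannot be set against each other, so that only the change of this value between arrays has a meaning. Pf4 minus Itga2b was 6.08, 3.84, 3.07 and 4.10 in PyMT BrM and 7.71 and 6.41 in EO771 BrM, against -0.88, -1.77 and -1.51 in PyMT spleens, 0.42 and 0.69 in naive spleens, -1.90 in PyMT bone marrow and -0.25 and -0.25 in naive bone marrow. The lowest BrM array, at 3.07, stood above the highest other array, at 0.69. Pf4 minus Gp1bb lay at 4.48 to 7.69 in BrM and at -0.84 to 1.31 elsewhere, and Pf4 minus Gp9 at 3.24 to 7.24 in BrM and at -0.99 to 1.46 elsewhere.

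Pf4 minus Ppbp lay at 2.73 to 5.45 in BrM, with EO771 BrM 1 lowest, and at -2.03 to 1.70 elsewhere. For each of the 4 genes BrM and the other tissues did not overlap, and an exact two-sided permutation test over all splits of the 14 arrays into groups of 6 and 8 gave p = 0.000333, the smallest it can give. A Pf4 value enters each of these differences, and Pf4 minus any probe of the array kept BrM and the rest apart for 16.7% of probes. In limma fits of the differences all 4 were called (4.50 to 5.88, SE 0.88), but so were 93.0% of Pf4 minus any other probe, so that these calls say little about the 4 genes. The same held against spleen, where 99.1% were called higher. Against bone marrow, where Pf4 alone was not called, only 2.14% were called higher, and all 4 genes were among them, with Pf4 minus Itga2b at 6.00, Pf4 minus Gp1bb at 5.52, Pf4 minus Ppbp at 5.13 and Pf4 minus Gp9 at 4.14 (SE 0.90 each). Since the same Pf4 values and the same SE enter every difference, these calls only mark the probes that fell most against bone marrow. They are no separate evidence on Pf4, and neither Pf4 nor Ppbp was called there on its own.

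**Figure D3:**
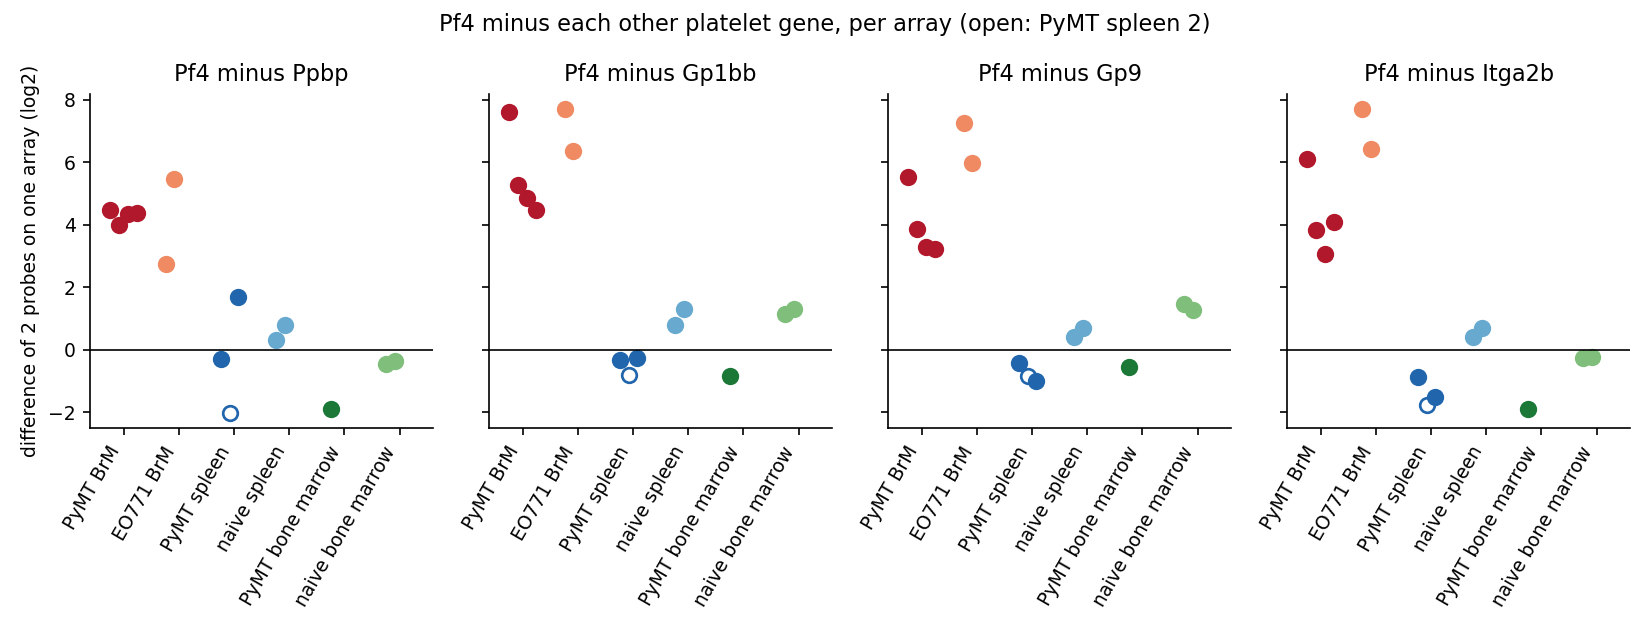
Log2 level of Pf4 minus that of another platelet gene on the same array (y axis), for each of 4 genes, by condition (x axis), with each point 1 array and PyMT spleen 2 open. The BrM points lie at 2.73 or higher in every panel and the spleen and bone marrow points at 1.70 or lower.

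Over the 14 arrays the surface genes followed each other, with Pearson's r of 0.946 between Gp1bb and Gp9, 0.953 between Gp1bb and Itga2b and 0.973 between Gp9 and Itga2b. Pf4 did not follow them, with r of -0.27 for Gp1bb, -0.21 for Gp9 and -0.27 for Itga2b, and Ppbp was closer to them (r of 0.66 to 0.72) than to Pf4 (0.34). These values describe 14 arrays that fall into tissues, and they carry no test. Among the 6 BrM arrays alone, where the surface genes had little spread, Gp1bb and Itga2b had r = -0.61. Within BrM, Pf4 and the brighter Ppbp probe had the same 3 arrays highest, EO771 BrM 1, PyMT BrM 1 and EO771 BrM 2, in that order, whereas on the second Ppbp probe PyMT BrM 3 (4.41) came before EO771 BrM 2 (4.31).

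**Figure D4:**
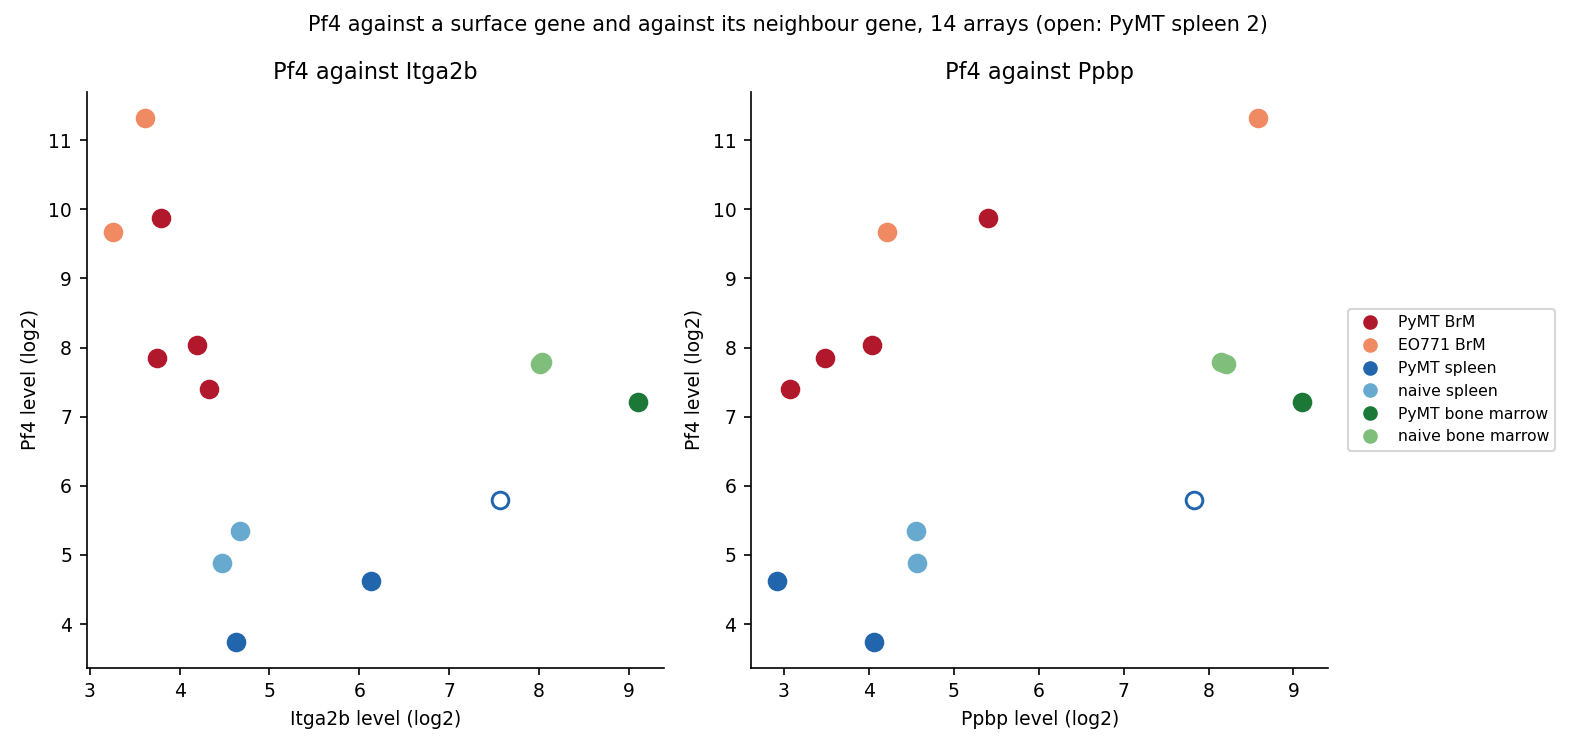
Log2 level of Pf4 (y axis) against that of Itga2b (left, x axis) and of Ppbp (right, x axis), with 1 point for each of 14 arrays coloured by condition and PyMT spleen 2 open. BrM arrays have high Pf4 at Itga2b levels of 3.26 to 4.33, bone marrow has Pf4 of 7.21 to 7.78 at Itga2b levels of 8.02 to 9.10, and most spleens are low in both.

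The genes most like each of the 5 over the 14 arrays, out of 17084 genes whose level spanned at least 1 log2 unit, named known platelet genes for the surface genes only. Gp1bb was followed most closely by Tubb1, the beta tubulin of platelets (r = 0.985), and Alox12, the platelet 12-lipoxygenase (r = 0.971), then by Itprip, Tmem45a2 and Atg9a (r of 0.960 to 0.963). Itga2b was followed by Gm5294 (0.978), Gp5, which encodes a further subunit of the glycoprotein Ib-IX-V complex (0.974), Gp9, Rnf19a and Fam222b (0.971). Gp9 was followed by Rnf19a (0.974), Itga2b, H2al1e, Gata2, a GATA factor of progenitors, mast cells and early megakaryocytes (0.956), and Mgll (0.956). For Pf4 the list was Cacul1 (0.933), Bcl2l1, which encodes a survival protein, Kdelr3, Osm, the cytokine oncostatin M, and Tmem218 (0.919). For Ppbp it was Dnmt3l (0.932), Ubap1, Ppp4r1, Inhba, which encodes a subunit of activin A, and Lrrfip2 (0.908).

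Beyond the 5 genes, 40 of 46 further platelet and megakaryocyte genes were measured, and more of them were called lower than higher against bone marrow. In that comparison, 2 were called higher and 9 lower in BrM (beside 3.24% and 3.21% of all probes), so that the higher share was near that over all probes, and the median difference over the 40 was -0.71, where it was -0.02 over all probes. Against spleen, 3 were called higher and 3 lower (beside 2.57% and 2.60% of all probes), with a median of -0.24, and without PyMT spleen 2 these counts were 5 and 5 (beside 3.13% and 3.35% of all probes), and against bone marrow 2 and 12 (beside 4.35% and 4.22%). Against both tissues together 3 were higher and 5 lower (beside 3.80% and 3.12%), with a median of -0.41. The rest did not pass the test.

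In the fits of all 14 arrays, all genes called higher were among the 10 measured genes of the granule cargo and secreted proteins. Thbs1, which encodes the matrix protein thrombospondin 1, had log2 levels of 8.79, 6.39, 6.17 and 7.45 in PyMT BrM and 10.79 and 10.38 in EO771 BrM, against 3.40 to 5.09 in spleen and 4.05 to 4.81 in bone marrow. It was higher than in spleen by 4.32 (SE 0.73, adjusted p = 0.00116) and than in bone marrow by 3.83 (SE 0.86, adjusted p = 0.00751), with no overlap. Sparc, a collagen-binding matrix protein, was higher by 3.75 (SE 0.55, adjusted p = 0.00038) than in spleen and by 2.99 (SE 0.65, adjusted p = 0.00611) than in bone marrow. F13a1, which encodes the clot-stabilising factor XIII A chain, was higher than in spleen by 1.92 (SE 0.39, adjusted p = 0.00458). From bone marrow F13a1 differed by 1.46 (SE 0.46, adjusted p = 0.0502) and was not called, with 5 BrM arrays above all marrow arrays and 1 below them. These 3 proteins are known from macrophages or connective tissue cells as well as from platelets.

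The genes called lower belonged to the receptors, the signalling of the fibrinogen receptor and the megakaryocyte cytoskeleton and regulators. Of the von Willebrand factor receptor list, Gp5 was lower than in bone marrow (log2 difference -3.96, SE 0.41, adjusted p = 1.73e-05), at 3.71 to 4.31 in BrM and 7.66 to 8.30 in bone marrow. Tubb1 had the largest difference from bone marrow, -5.18 (SE 0.59, adjusted p = 3.87e-05), with 2.08 to 4.51 in BrM and 8.19 to 9.13 in bone marrow, and Alox12 differed by -4.43 (SE 0.50, adjusted p = 3.38e-05). Nfe2, a transcription factor of late megakaryocytes that is also present in neutrophils and red cell precursors, differed by -4.56 (SE 0.42, adjusted p = 6.12e-06) from bone marrow and by -2.90 (SE 0.36, adjusted p = 7.79e-05) from spleen.

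Rasgrp2, whose product switches on the integrin of platelets and neutrophils, was the only other gene called lower against spleen, bone marrow and both tissues together, with 3.45 to 4.43 in BrM and 6.43 to 7.85 elsewhere. Among 6 receptors for platelet agonists, the ADP receptor P2ry1 (-2.66, adjusted p = 0.000151), the ATP receptor P2rx1 (-3.55, adjusted p = 0.00135) and the thrombin receptor F2rl3 (-2.08, adjusted p = 0.00421) were called lower than in bone marrow. The thromboxane receptor Tbxa2r was called lower than in spleen (-1.13, adjusted p = 0.00386). None of the 4 collagen and podoplanin receptor genes was called with all 14 arrays (medians of -0.04 against spleen and -0.58 against bone marrow). Without PyMT spleen 2, Clec1b, the podoplanin receptor, was called lower than in spleen (adjusted p = 0.000815) and Fcer1g, a signalling chain shared with many myeloid cells, higher (adjusted p = 0.00414), and Tln1, which encodes the integrin activator talin 1, was also called higher (adjusted p = 0.00813). The spleen calls of Thbs1, Sparc, F13a1, Nfe2, Rasgrp2 and Tbxa2r were kept without that array (adjusted p at most 0.00252). Itgb3, the beta chain that pairs with Itga2b, was named after its values were seen: it lay at 3.25 to 4.53 in BrM, 2.30 to 4.24 in spleen and 3.30 to 4.09 in bone marrow, below or near the median probe in all.

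**Figure D5:**
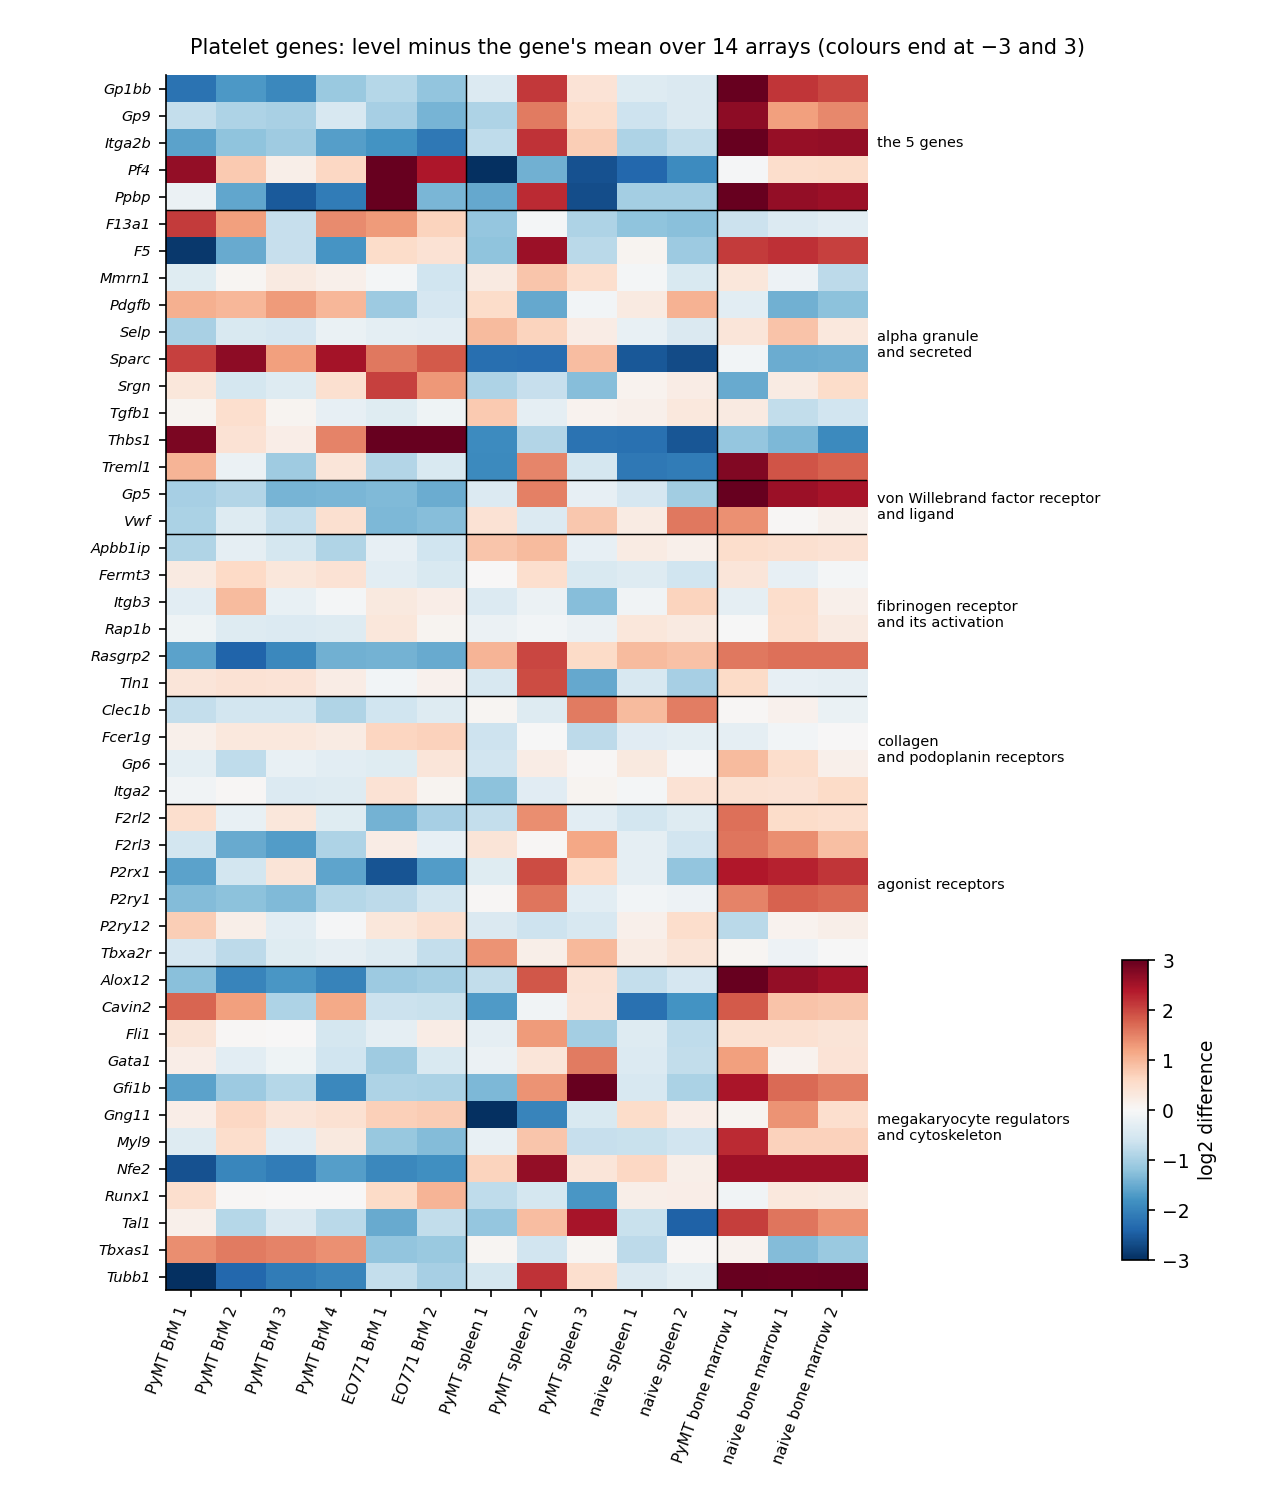
Log2 level minus the gene's mean over 14 arrays (colour, from -3 to 3) for the 5 genes and the 40 further platelet genes (rows, by role) on each array (columns, by condition). Bone marrow and PyMT spleen 2 are high for Gp1bb, Gp9, Itga2b, Gp5, Tubb1 and Alox12. BrM are above the gene's mean for Pf4, Thbs1 and Sparc, and 5 BrM arrays are high for F13a1. For Pf4, PyMT BrM 3 (level 7.41) is only just above the mean and below naive bone marrow (7.77 and 7.78).

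Of the other CXC chemokine genes of the cluster that holds Pf4 and Ppbp, 4 of 5 were measured. Cxcl1 and Cxcl2, which draw neutrophils through their receptor Cxcr2, were higher in BrM than in spleen, Cxcl1 by 4.24 (SE 0.75, adjusted p = 0.00162) and Cxcl2 by 4.47 (SE 0.72, adjusted p = 0.000721), and Cxcl2 than in bone marrow by 4.01 (SE 0.84, adjusted p = 0.00469). The calls against spleen were kept without PyMT spleen 2 (adjusted p = 0.00204 for Cxcl1 and 0.00155 for Cxcl2). Cxcl1 missed the threshold against bone marrow, at 3.74 (SE 0.88, adjusted p = 0.0102). Cxcl3 and Cxcl15 lay at or below the median probe on every array except Cxcl15 in PyMT BrM 4 (4.13). Cxcr3, a receptor that CXCL4 can bind, differed by -0.29 from spleen and by -0.64 from bone marrow and was not called.

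Markers of other cell types also differed between the tissues, and their part in the results was not tested. Of 10 measured macrophage markers, 4 were called higher against spleen and 6 against bone marrow, beside 2.57% and 3.24% of all probes, and 4 and 9 without PyMT spleen 2, beside 3.13% and 4.35%. Their mean log2 level was 11.5 to 11.8 in BrM, 9.22 to 9.90 on the 4 spleen arrays other than PyMT spleen 2 and 8.24 to 8.94 in bone marrow. Of 10 genes of tissue macrophages in which Pf4 is often found, Folr2, a folate receptor, and Ms4a7 were called higher in both comparisons and Gas6, a ligand of clearance receptors, against bone marrow, and the counts were also 2 and 3 of 10 without PyMT spleen 2. The list did not move as one: Cd163, a hemoglobin scavenger receptor, differed by -3.23 from spleen (adjusted p = 0.0348) and by -2.99 from bone marrow (adjusted p = 0.0904), and Mrc1 and Lyve1, both endocytic receptors, differed by 0.28 and 0.81 from spleen, none of them called. Folr2 differed by 4.27 (SE 0.55, adjusted p = 0.000111) from spleen and Ms4a7 by 3.06 (SE 0.46, adjusted p = 0.000459), and the list's mean level was 7.23 to 9.46 in BrM, 6.75 to 7.43 in those spleens and 6.61 to 6.87 in bone marrow. Across the tumor models the list's mean did not follow Pf4. It was lowest in EO771 BrM 1 and 2 (7.68 and 7.23), whose Pf4 was 11.32 and 9.67. Next came PyMT BrM 3 (7.69), which had the lowest Pf4 of the BrM (7.41). The list's mean was highest in PyMT BrM 1 (9.46), whose Pf4 was 9.88. Among the PyMT BrM alone, PyMT BrM 1 was thus highest and PyMT BrM 3 lowest in both. PyMT BrM 2 and 4 lay between, at 8.15 and 8.23 for the list and 8.03 and 7.85 for Pf4.

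On the side of the surface genes, neutrophil, red cell, basophil, mast cell and eosinophil genes were also low in BrM, neutrophil genes most often. The mean log2 level of 9 measured erythroid markers was 4.40 to 5.11 in BrM, 5.03 to 8.78 in those 4 spleens and 7.91 to 8.38 in bone marrow, and PyMT spleen 3, which had the second highest Gp9 and Itga2b of the spleens, held the highest erythroid level of all arrays. Of the 9, 3 were called lower than in spleen and 4 than in bone marrow, beside 2.60% and 3.21% of all probes, and 2 and 4 without PyMT spleen 2, beside 3.35% and 4.22%. Of 8 basophil and mast cell markers 2 were called lower than in spleen and 4 than in bone marrow, and 2 and 6 without PyMT spleen 2, beside the same shares of all probes, with a mean level of 5.03 to 5.27 in BrM, 5.73 to 6.21 in the spleens and 6.96 to 7.41 in bone marrow. The mean level of 4 eosinophil markers was 3.54 to 5.57 in BrM, 5.70 to 6.13 in the spleens and 7.58 to 8.73 in bone marrow. The 6 stem and progenitor markers, which bear on Itga2b as a gene of early progenitors, lay at 4.44 to 5.23 in BrM, 4.62 to 4.92 in the spleens and 4.99 to 5.22 in bone marrow, and none was called. Neutrophil markers had a mean level of 6.28 to 9.22 in BrM, 11.3 to 11.7 in the spleens and 12.6 in bone marrow. Of 11 measured, 10 were called lower than in spleen and 11 than in bone marrow, with and without PyMT spleen 2. Of 4 measured B cell markers, 3 and 0 were called lower, and 3 and 2 without that array, beside the same shares of all probes. Endothelial markers had a mean level of 4.88 to 6.06 in BrM, 5.98 to 6.58 in the spleens and 5.32 to 5.47 in bone marrow.

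Gp1bb shares its locus with Septin5, whose transcripts can read into it, so its signal has a further caveat. Septin5, named after its values were seen, had a brighter probe at 4.74 to 5.13 in BrM, 6.82 to 9.85 in spleen and 9.74 to 10.01 in bone marrow, the same order as Gp1bb. Whether transcripts of one locus bind the probe of the other was not tested. Gp9 and Itga2b had the order of Gp1bb too.

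Between the tumor models, Pf4 averaged 8.29 ± 1.09 (SD, n = 4) in PyMT BrM and 10.49 ± 1.17 (SD, n = 2) in EO771 BrM, but the difference of -2.20 (SE 0.70, limma adjusted p = 0.0897) did not pass and the arrays overlapped. None of the 5 genes was called in this comparison, where 1.59% of probes were. Ppbp differed by -2.40 (95% interval -5.21 to 0.41) and by -0.22 without EO771 BrM 1, Gp1bb by -0.73, Gp9 by 0.43 and Itga2b by 0.59 (adjusted p of 0.331 to 0.698).

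PyMT spleens were also set against naive spleens, with none of the 5 genes called and 0.115% of all probes. Itga2b differed by 1.54 (SE 0.60, 95% interval 0.22 to 2.86, adjusted p = 0.19), Gp1bb by 1.12 and Gp9 by 0.91, while Pf4 differed by -0.40 and Ppbp by 0.37. These values rested on PyMT spleen 2, without which they were 0.81 for Itga2b, 0.41 for Gp1bb, 0.32 for Gp9, -0.94 for Pf4 and -1.07 for Ppbp, and again none was called. The PyMT difference from control tissue minus the EO771 difference was called for none of the 5 genes and for 0.130% of all probes. It was -1.10 (95% interval -3.94 to 1.75) for Pf4, -2.01 for Ppbp, -1.32 for Gp1bb, -0.12 for Gp9 and 0.02 for Itga2b. Without PyMT spleen 2 it was -0.94 for Pf4, -1.39 for Ppbp, -1.09 for Gp1bb, 0.08 for Gp9 and 0.26 for Itga2b, none called. These intervals leave room for large differences between the models.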

How the data were processed

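RNA of sorted GFP+CD11b+ cells was hybridised to 14 Illumina MouseWG-6 v2 arrays. The authors deposited log2 values that they had background-corrected and quantile normalized, with GenomeStudio 2011.1 and a limma of unnamed version. How the background was corrected and which base the logarithm had are not given in the sources used here; base 2 was taken from the span of the values. No detection p-values were used, 80 values per array are below 0, and precision is limited by how few arrays there are. Symbols came from the platform annotation, with 34885 probes of 1 gene, 18 of several and 10378 of none.

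All tests used R 4.3.3 and limma 3.58.1 (lmFit and eBayes, two-sided), with Benjamini-Hochberg adjustment over 45281 probes. A difference was called where its adjusted p was under 0.01. Fits had 2 groups (BrM against the rest), 3 tissues, 4 groups (for the difference between models) or 6 conditions, and differences are the group named first minus the second. A gene with several probes was represented by the probe of highest mean. Mouse sets are the PyMT-bearing mice against the EO771-bearing and naive mice. Of 148 listed genes 130 had a probe of 1 symbol; the others were not analysed here. The 5 genes, the lists and the tests were chosen with earlier results of these data known. Named were all probes of the 5 genes, up to 3 called genes per direction, list and comparison, and the 5 genes most like each of the 5. After their values were seen, Itgb3, Septin5, Clec1b, Fcer1g, Tln1, Cd163, Mrc1 and Lyve1 were named too. So were Cxcl3, Cxcl15 and Cxcr3, as the rest of their lists. Before use, the fit of 2 groups and the fit of 3 tissues, the latter for BrM against bone marrow, were tested on simulated data. The other fits were not tested in this way. Alternatives were other variance models, a filter on dim probes, averaged probes, centring on reference genes, another threshold, the methods' t-test, blocks, equal weight of conditions, and each array left out in turn.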

Additional observations from a re-analysis of the deposited data

How the results depend on the processing

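The counts below are of the 5 genes called. Except for the t-test and where stated above, no shares of all probes are given beside them. A higher count alone therefore says little about the 5 genes. For BrM against spleen and bone marrow together, 2 were called. The count was 4 at an adjusted p under 0.05 and 4 with equal weight of the 6 conditions. By the methods' t-test it was 4 at an unadjusted p under 0.05, beside 10295 of all 45281 probes. After Benjamini-Hochberg adjustment of that test it was 0, beside 2854 probes. The count was 1 (Pf4) with the naive bone marrow arrays, which share a code, averaged. It was 0 within the PyMT set and 0 within the EO771 and naive set. With EO771 BrM 1 and PyMT spleen 2 both left out, added after the data were seen, it was 0. With each array left out in turn it ranged from 0 to 2. Deviations of same-coded PyMT BrM and spleen arrays correlated at -0.04 to -0.01 and those of same-numbered arrays at -0.01 to 0.05, values near 0, although the codes point to shared mice. Of PyMT BrM 1 to 3, 2 correlated best with the spleen of their number, at r = 0.013 and 0.053. Such small values cannot tell which arrays are pairs. The title number as a replicate block left 1 (Pf4) and the title code as a random replicate block left 2, with a consensus correlation of 0.11. For BrM against spleen, 1 was called, 3 at an adjusted p under 0.05, 2 with the mouse set as a block (Pf4 and Itga2b), 2 within the PyMT set (Pf4 and Gp1bb) and 0 in the 3 same-code pairs with the code as a replicate block, where Pf4 differed by 3.04 (adjusted p = 0.02), and 1 in each fit without 1 array. For BrM against bone marrow, 3 were called and 2 to 4 without 1 array. For spleen against bone marrow the count was 0, from 0 to 3 without 1 array, and 5 without EO771 BrM 1 and PyMT spleen 2 together. Where a count fell with fewer arrays or pairs, the fit had fewer samples; the cause of the other changes was not tested. The replicate block by title number changed no count of the other comparisons.

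The count stayed at 0 for PyMT BrM against EO771 BrM, PyMT spleen against naive spleen and the difference between models in every alternative run. All 4 differences of Pf4 from the other genes stayed called, which says little, since the same Pf4 values enter each. None of the differences that were called changed sign under any alternative. The 3 PyMT pairs and the single PyMT bone marrow array leave few degrees of freedom. Levels of Gp1bb, Gp9 and Itga2b in BrM near or below the median probe are limited by signal over background, so their folds are not exact.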

Other observations

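Among the 6 BrM arrays, PyMT BrM 1, EO771 BrM 1 and EO771 BrM 2 held the 3 highest levels of Pf4, Thbs1, Cxcl1 and Cxcl2, which were singled out after their values were seen. Cxcl2, a neutrophil chemokine, stood at 10.77 in PyMT BrM 1 and at 12.11 and 10.64 in EO771 BrM, and at 7.69 to 8.18 in the other 3 PyMT BrM. Cxcl1 stood at 9.03, 8.84 and 7.99 on those 3 arrays and at 5.15 to 6.04 on the other 3. Sparc, in contrast, stood at 8.10, 7.61 and 7.87 on the same arrays and at 7.28 to 8.73 on the rest, inside their range. Gp1bb did not separate these arrays either, at 2.27, 3.63 and 3.30 and at 2.54 to 3.37 on the rest. Neither did Gp9, at 4.36, 4.07 and 3.69 and at 4.11 to 4.61 on the rest. Itga2b nearly did, in the other direction, at 3.80, 3.61 and 3.26 and at 3.75 to 4.33 on the rest. Over the 6 BrM arrays, Pf4 and Itga2b had r = -0.67.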
